A study of Bos taurus with 12 samples.

Results

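Before a milk protein can be secreted, it has to be fed into the endoplasmic reticulum and carried on to the Golgi, and the genes described here encode the machines of that first stretch of the secretory pathway. The set holds 47 genes, written as a list of symbols by membership in 7 machines: the signal recognition particle with its receptor, the translocon, the translocon-associated protein complex, the signal peptidase, the oligosaccharyltransferase, and the COPII and COPI vesicle coats. Of the 47 genes, 41 matched at least 1 probe of the array through its RefSeq transcript, out of 12787 genes that could be matched in all. All 41 were detected well above background on all 12 arrays, and all 41 were among the 7930 genes tested. No probe was matched to SPCS2, SRPRB, OST4, SEC23A, SEC24B or SEC24D, which were therefore not analysed here.

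A protein bound for secretion carries a signal sequence at its start. The signal recognition particle binds that sequence as it leaves the ribosome and docks the ribosome at its receptor, and the chain then passes through the SEC61 channel of the translocon. Inside the reticulum, the signal peptidase cuts the signal sequence off and the oligosaccharyltransferase attaches N-linked sugar chains. COPII-coated vesicles then leave the reticulum for the Golgi, and COPI-coated vesicles return escaped proteins and receptors. The lactating mammary epithelium uses this route for caseins and whey proteins, which makes the machinery abundant in the gland.

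Mammary gland (MG) biopsies came from multiparous Holstein cows in midlactation, each sampled in both periods and therefore serving as its own control. CONT was day 0, when the cows ate a lactation diet ad libitum, and REST was day 6 of a feed allowance that covered 50% of the net energy for lactation the cow required. The labels name 6 cows, while the series description counts 5 and the methods speak of a Holstein cow excluded for mastitis without a label that identifies it, so the fits behind the members and the pathway genes were repeated with 1 cow omitted. There was no group kept on full feed until day 6, and the methods alternate the biopsies between the rear sides of the udder, so restriction, elapsed time and side cannot be told apart.

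Each of the 12 RNA samples was hybridized to its own one-colour array, which reports the brightness of each probe. Signals are given as log2 units relative to the 75th percentile of the array, and a change is REST minus CONT within the cow, averaged over 6 cows. CONT and REST of a cow shared a slide: slide 1 carried cows 1 and 2, slide 2 carried cows 3 and 4, and slide 3 carried cows 5 and 6. Slide 3 was dimmer, its 75th percentile lying between 73.1 and 117 intensity units against 252 to 390 on the other slides, and 41.9 to 48.0% of its spots were well above background against 61.8 to 67.9%. Before scaling, every REST array had a higher 75th percentile than the CONT array of the same cow, on average by 0.30 log2 units with an SD of 0.10 over 6 cows. The values below describe biopsies of whole tissue, in which fewer cells of a type and less RNA per cell cannot be told apart.

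Feed restriction was accompanied by lower signals of a small number of the machinery genes, and most genes of the set moved little. SSR4, SRP9, SRP14 and COPE were downregulated and COPG2 was upregulated, with the cow as a block in limma and an adjusted p under 0.1 over all 19403 tested probes. These were 5 of 41 members, or 12.2%, against 16.2% of all tested genes. Downregulated members were 4 of 41, against 9.27% of all genes, and the upregulated member was 1 of 41, against 6.94%. Taken over both directions, called genes were not more frequent here than on the array as a whole, and the downregulated share was close to that of all genes. The estimates themselves were more often below 0 than above it, 30 against 11, with a median of -0.10 log2 units against -0.01 over all tested genes. With normexp background correction, fitted to the raw spot signals, both medians were 0.01, and with scaling to the spike-in controls they were 0.16 and 0.25. The median of the members was -0.055 with quantile normalization, and it ran from -0.149 without cow 5 to -0.053 without cow 4. With normexp 4 members were called, 2 of them lower, against 18.5% of all genes. Under spike-in scaling COPG2 alone was called, against 11.2%. At an unadjusted p under 0.05 there were 9 of 41 members, against 27.7% of all genes, and 8 of 41 were lower, against 15.4%. Without the pairing by cow, 2 of 41 members were called, SSR4 and COPG2, against 4.4% of all genes. The count depended on which cows were included. It was 2 without cow 1, 1 without cow 2, 4 without cow 3, 1 without cow 4, 7 without cow 5 and 2 without cow 6. Over the same fits the share of all genes called moved between 5.69% and 16.4%.

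**Figure D1:**
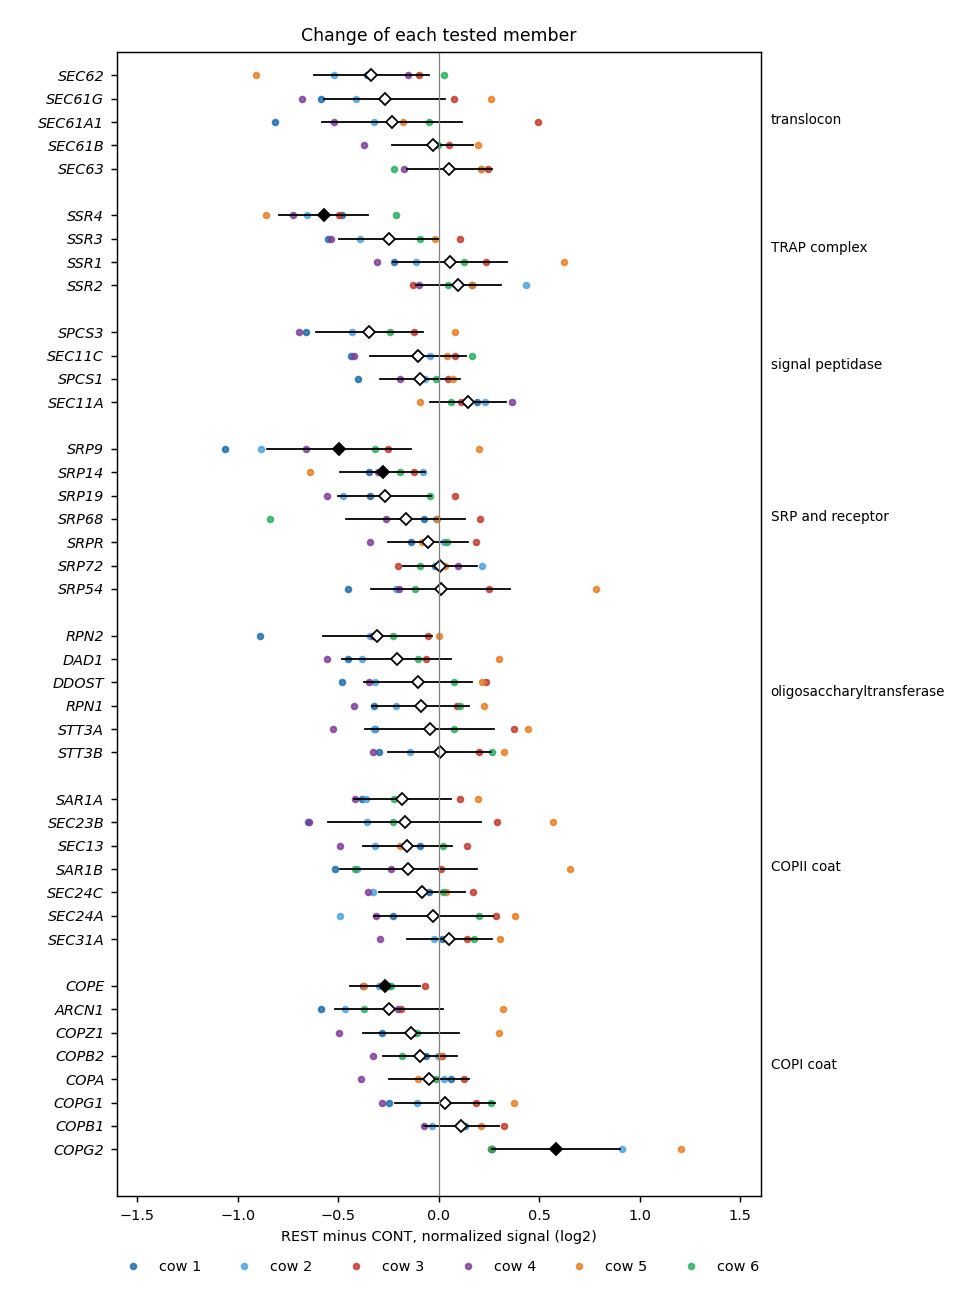
Change in normalized signal (REST minus CONT, log2 units) of each of the 41 tested secretory machinery genes, ordered by machine, with the mean over 6 cows as a diamond (filled where called), its 95% confidence interval from limma as a line and the single cows as coloured points (TRAP, translocon-associated protein; SRP, signal recognition particle). Most intervals span 0, the 4 downregulated genes lie between -0.57 and -0.27, and COPG2 stands alone on the right at 0.58.

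Among the 36 members that were not called, 28 had a 95% confidence interval of the change that lay within 0.5 log2 units of 0 on both sides. Over all 36, the largest estimate was that of SPCS3 at -0.34, with an interval from -0.61 to -0.08. Changes under 0.25 log2 units in size were found for 31 of the 41. Members lower in 6 of 6 cows were 4, SSR4, SRP14, COPE and RPN2, against 10.9% of all genes, and COPG2 was the 1 member higher in 6 of 6, against 7.45%.

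The signal recognition particle with its receptor stands at the entrance of the pathway. Of the 7 tested genes of this machine, 2 were downregulated, in a comparison in which 9.27% of all genes were. With so few genes, nothing particular to the particle can be read from that share. Both downregulated genes encode the same small heterodimer, since SRP9 and SRP14 together form the part of the particle that slows translation until the ribosome has docked. The SRP9 signal ran from -1.16 to -0.19 in CONT, with a median of -0.39, and from -1.28 to -0.63 in REST, with a median of -0.98. Cow 5 set the low end of CONT and was the 1 cow in which SRP9 was higher in REST, by 0.20. In the other cows it was lower, by as much as -1.06 in cow 1. The change of SRP9 was -0.50 ± 0.16 log2 units (SE, n = 6; adjusted p = 0.0871 in limma). The call was lost without cow 1, 2, 3, 4 or 6, with an adjusted p between 0.115 and 0.225, without the pairing, at 0.150, and with spike-in scaling, at 0.493 for a change of -0.23. A single probe measured SRP9, with a signal below the 75th percentile of every array.

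SRP14 ran from 3.85 to 5.06 in CONT, with a median of 4.10, and from 3.65 to 4.42 in REST, with a median of 3.87. The groups overlapped widely because cows 5 and 6 were high in both periods, yet within each of the 6 cows the REST array was the lower one, by 0.08 in cow 2 at the least and by 0.64 in cow 5 at the most. That gave a change of -0.28 ± 0.09 log2 units (SE, n = 6; adjusted p = 0.0970 in limma). This call sat close to the threshold. It was lost whichever cow was left out, with an adjusted p between 0.123 and 0.205, and the adjusted p was 0.539 without the pairing, 0.216 with cow as a random block and 0.166 with the slide as a block. The adjusted p was 0.116 with a median shift and 0.147 with quantile normalization. With normexp background correction the change was -0.15 (adjusted p = 0.303), and with spike-in scaling it was -0.017.

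The other genes of the particle and its receptor did not pass the test. SRP19, which helps fold the RNA of the particle, had a change of -0.27 (adjusted p = 0.131) and was lower in 5 of 6 cows. SRP68, which forms the other heterodimer of the particle with SRP72, stood at -0.16, lower in 5 of 6 cows and as low as -0.84 in cow 6. SRP54, the subunit that binds the signal sequence, had a change of 0.0091 with a 95% confidence interval from -0.34 to 0.35. Its values in single cows spread from -0.45 in cow 1 to 0.78 in cow 5. SRP72 stood at 0.0050 and SRPR, the receptor subunit on the membrane of the reticulum, at -0.05. The median over the 7 genes of the particle and its receptor was -0.16.

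No gene of the translocon was called in limma, with the pairing or without it, although 4 of its 5 estimates lay below 0 and 1 had an unadjusted p under 0.05. SEC61A1 encodes the channel itself, and its signal ran from 4.06 to 4.88 in CONT, median 4.74, and from 4.06 to 4.69 in REST, median 4.48. The change of SEC61A1 was -0.23 ± 0.15 (SE, n = 6; adjusted p = 0.358 in limma). It was lower in 5 of 6 cows and 0.49 higher in cow 3, whose CONT array held the lowest CONT value. The small subunits of the channel were SEC61G at -0.27 (adjusted p = 0.227) and SEC61B at -0.03, with an interval from -0.23 to 0.17 for the latter.

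SEC62, which with SEC63 serves chains that enter the channel after their synthesis, ran from 4.35 to 5.04 in CONT and from 4.13 to 4.47 in REST, with medians of 4.65 and 4.32. It was lower in 5 of 6 cows and within 0.03 of 0 in cow 6, and the change of -0.33 ± 0.13 (SE, n = 6) had an adjusted p of 0.127 in limma. All 6 of its probes gave an estimate below 0, between -0.33 and -0.04. SEC63 stood at 0.05. The median over the translocon was -0.23, with a range from -0.34 without cow 3 to -0.11 without cow 1.

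The translocon-associated protein complex, a partner of the channel that helps many secreted chains to enter, held the clearest single change of the set. SSR4, its delta subunit, ran from 7.05 to 7.39 in CONT, with a median of 7.24, and from 6.37 to 6.84 in REST, with a median of 6.69. Every REST array lay below every CONT array. Such a separation was seen for 1 of the 41 members and for 2.27% of all tested genes. SSR4 fell by 0.57 ± 0.10 log2 units (SE, n = 6; adjusted p = 0.0171 in limma), which is to say that its signal fell by 32.7%. The fall ranged over the cows from 0.21 in cow 6 to 0.86 in cow 5, and both probes of the gene were called, at -0.62 and -0.57. SSR4 was called without any 1 of the cows (adjusted p between 0.0227 and 0.0626) and without the pairing (0.0130). Scaled to the spike-in controls of the array its change was -0.31 (adjusted p = 0.364), and with every probe tested, dim ones included, the adjusted p was 0.101.

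The other 3 subunits were not called. SSR1, the alpha subunit, stood at 0.06 with a 95% confidence interval from -0.23 to 0.34, lower in 3 cows and higher in 3. SSR2, the beta subunit, stood at 0.10 with an interval from -0.12 to 0.31, and it was higher in 4 of 6 cows. SSR3, the gamma subunit, ran from 3.11 to 3.99 in CONT and from 3.02 to 3.58 in REST, with medians of 3.61 and 3.36. Its change was -0.25 ± 0.11 (SE, n = 6; adjusted p = 0.185 in limma), with 5 of 6 cows lower. Whether the change of SSR4 differed from those of its partners was not tested.

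**Figure D2:**
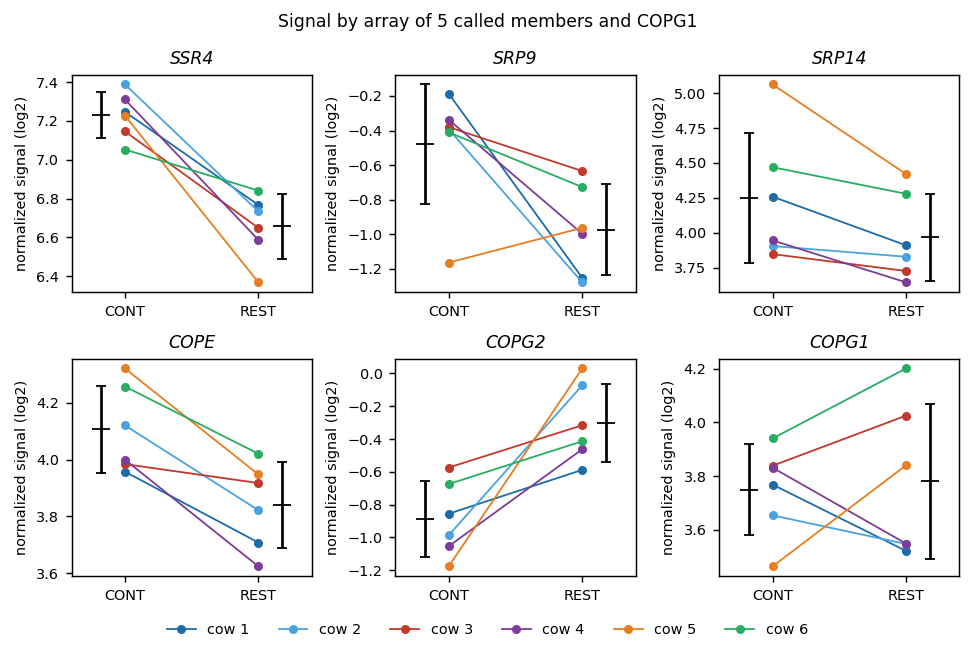
Normalized signal (log2 units relative to the 75th percentile of the array) in CONT and REST of the 5 called members and of COPG1, with 1 line per cow. SSR4 drops in every cow with no overlap between periods, COPE and SRP14 drop in every cow with overlap between periods, SRP9 drops in 5 of 6 cows, and COPG2 rises in 6 of 6 while COPG1 goes both ways.

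The signal peptidase had 4 tested genes and no call in limma, with the pairing or without it, and 1 gene at an unadjusted p under 0.05. This was SPCS3, an accessory subunit, which came nearest in the whole set to the threshold without passing it. It ran from 3.64 to 3.98 in CONT and from 3.18 to 3.79 in REST, with medians of 3.90 and 3.47. The change of SPCS3 was -0.34 ± 0.12 (SE, n = 6; adjusted p = 0.102 in limma), and 5 of 6 cows were lower, cow 5 being the exception at 0.08. SPCS1, another accessory subunit, stood at -0.09. The alternative catalytic subunits went in opposite directions on average, SEC11A at 0.14 with 5 of 6 cows higher and SEC11C at -0.10 with 3 of 6 lower, and neither was called.

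The oligosaccharyltransferase had 6 tested genes, none of which was called in limma, with the pairing or without it, and 1 of which, RPN2, had an unadjusted p under 0.05. RPN2 ran from 3.33 to 3.64 in CONT and from 2.75 to 3.61 in REST, with medians of 3.56 and 3.30. It was lower in 6 of 6 cows, but the size went from -0.89 in cow 1 to -0.00091 in cow 5, so that the change of -0.31 ± 0.12 (SE, n = 6) had an adjusted p of 0.139 in limma. DAD1, a small subunit needed for the complex to hold together, stood at -0.21 (adjusted p = 0.287), lower in 5 of 6 cows. The remaining subunits were nearer 0. DDOST stood at -0.10 and RPN1 at -0.09. The catalytic subunits were STT3A, which acts on chains while they enter, at -0.05, and STT3B, which acts on sites that were skipped, at 0.0038. Their intervals ran from -0.37 to 0.28 and from -0.25 to 0.26.

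The COPII coat had 7 tested genes, with no call in limma, with the pairing or without it, and 0 at an unadjusted p under 0.05. Its estimates ran from -0.18 to 0.05 with a median of -0.15. SAR1A and SAR1B, the GTPases that start the coat, stood at -0.18 and -0.15, each lower in 4 of 6 cows. SAR1A ran from 0.67 to 1.62 in CONT and from 0.86 to 1.27 in REST, and SAR1B from -0.33 to 0.51 and from -0.13 to 0.32. For both genes the REST values lay inside the CONT range. In the inner coat, which gathers the cargo, SEC23B stood at -0.17, SEC24C at -0.08 and SEC24A at -0.03. Of these, SEC23B spread most between cows, from -0.65 in cow 1 to 0.57 in cow 5. The outer cage is built of SEC13, at -0.16, and SEC31A, at 0.05.

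The COPI coat had 1 gene down and 1 up among its 8 tested genes, too few for a comparison with the 16.2% of all genes called. COPE, the epsilon subunit, ran from 3.96 to 4.32 in CONT, median 4.06, and from 3.62 to 4.02 in REST, median 3.87. It was lower in 6 of 6 cows, by 0.07 in cow 3 at the least and by 0.38 in cow 4 at the most. The change of COPE was -0.27 ± 0.08 (SE, n = 6; adjusted p = 0.0672 in limma), and 3 of its 4 probes were called, with all 4 between -0.28 and -0.19. The call was lost without cow 1, 2, 4, 5 or 6 (adjusted p between 0.111 and 0.173) and without the pairing (0.211). The change was -0.08 with normexp background correction (adjusted p = 0.532) and -0.0047 with spike-in scaling (adjusted p = 0.990).

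COPG2, one of the alternative gamma subunits of the coat, was the sole member that rose. It ran from -1.18 to -0.57 in CONT, with a median of -0.92, and from -0.59 to 0.03 in REST, with a median of -0.37. The lowest REST value lay just inside the CONT range, and within each of the 6 cows REST was higher, by 0.26 in cows 3 and 6, 0.27 in cow 1, 0.59 in cow 4, 0.91 in cow 2 and 1.21 in cow 5. COPG2 rose by 0.58 ± 0.14 log2 units (SE, n = 6; adjusted p = 0.0425 in limma), or 49.7%. Without cow 2 the change was 0.52 (adjusted p = 0.127) and without cow 4 it was 0.58 (adjusted p = 0.111). With normexp background correction it was 0.32 (adjusted p = 0.0603). The call was lost without variance moderation (0.125) and with every probe tested, dim ones included (0.149), but not without the pairing (0.0489). With spike-in scaling, which raised the median of all genes to 0.25, the change was 0.84 (adjusted p = 0.00491), and no other member was called. The rise of COPG2 rests on 1 probe, whose signal lay below the 75th percentile of every array except REST of cow 5.

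None of the other coat subunits was called. ARCN1, the delta subunit, stood at -0.25 (adjusted p = 0.214), COPZ1, the zeta subunit, at -0.14 and COPB2 at -0.09, while COPB1 stood at 0.11. COPA stood at -0.05 on its brighter probe and at 0.60 on the other, neither of them called. The probes of a gene disagreed in sign for 8 of the 23 members with several tested probes, against 27.5% of such genes on the array. COPG1, the gamma subunit that can take the place of COPG2, ran from 3.46 to 3.94 in CONT and from 3.52 to 4.20 in REST, with medians of 3.80 and 3.69. It stood at 0.03 with a 95% confidence interval from -0.22 to 0.28, lower in 3 cows and higher in 3.

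Where both genes of a paralogous pair were measured, the changes of the partners were set against each other within each cow. Of 7 pairs listed by homology, 4 could be compared. COPG1 changed by 0.55 ± 0.43 log2 units less than COPG2 (mean ± SD, n = 6; 95% confidence interval of COPG1 minus COPG2 from -1.01 to -0.10). The difference had the same sign in 6 of 6 cows, although in cow 6 it was close to 0. The exact sign-flip test, two-sided, gave p = 0.03125, the smallest that 6 cows allow, and p = 0.125 after Benjamini-Hochberg adjustment over the 4 pairs. With 6 cows and 4 pairs, 0.125 is the lowest adjusted p that a single differing pair can reach, so this test could not have passed a threshold of 0.1 on COPG1 and COPG2 alone. With normexp background correction the difference was -0.21 (adjusted exact p = 0.688), and with quantile normalization it was -0.49 (adjusted exact p = 0.375). SEC11A minus SEC11C was 0.25 ± 0.39 (SD, n = 6; exact p = 0.219, adjusted p = 0.438), with an interval from -0.16 to 0.65. The differences were -0.05 for STT3A minus STT3B (interval from -0.22 to 0.13) and -0.03 for SAR1A minus SAR1B (interval from -0.29 to 0.23), with adjusted exact p of 0.542 and 0.844.

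Behind the small average changes lay a wide spread between cows, which the machines shared with most of the neighbouring gene lists described further below. In cow 1, 34 of the 41 members were lower in REST, in cow 2 there were 34 and in cow 4 there were 38. In cow 3 only 12 members were lower and in cow 5 only 13, the rest being higher, and cow 6 lay between with 24. The median change of the members was -0.32 in cow 1, -0.21 in cow 2, 0.11 in cow 3, -0.34 in cow 4, 0.19 in cow 5 and -0.04 in cow 6. Over all tested genes the corresponding medians lay between -0.05 and 0.01, with 48.8 to 56.7% of genes lower. Scaling each array to its own 75th percentile holds the latter near 0, so these values set the members against the other genes of the array and say nothing of a shift common to all genes.

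The 7 machines went together within a cow. All 7 medians were below 0 in cows 1, 2 and 4, 1 of 7 was below 0 in cow 3 and in cow 5, and 4 of 7 in cow 6. The oligosaccharyltransferase had medians of -0.39, -0.32 and -0.38 in cows 1, 2 and 4 and of 0.15, 0.26 and 0.08 in cows 3, 5 and 6. The COPII coat had -0.23, -0.36 and -0.35 in cows 1, 2 and 4 and 0.14, 0.30 and 0.02 in cows 3, 5 and 6. The signal recognition particle with its receptor spread least, from -0.34 in cow 1 to 0.08 in cow 3. Taken over the mean change of each gene, the medians of the 7 machines ran from -0.23 to -0.07, but with normexp background correction 5 of 7 were above 0, between 0.012 and 0.077, and the translocon and the COPII coat stood at -0.10 and -0.05. Within slide 3, 5 of 7 were above 0 too. With 1 array per cow and period, what is particular to a cow and what is particular to its biopsies or arrays cannot be told apart, and no test of the difference between cows was possible.

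**Figure D3:**
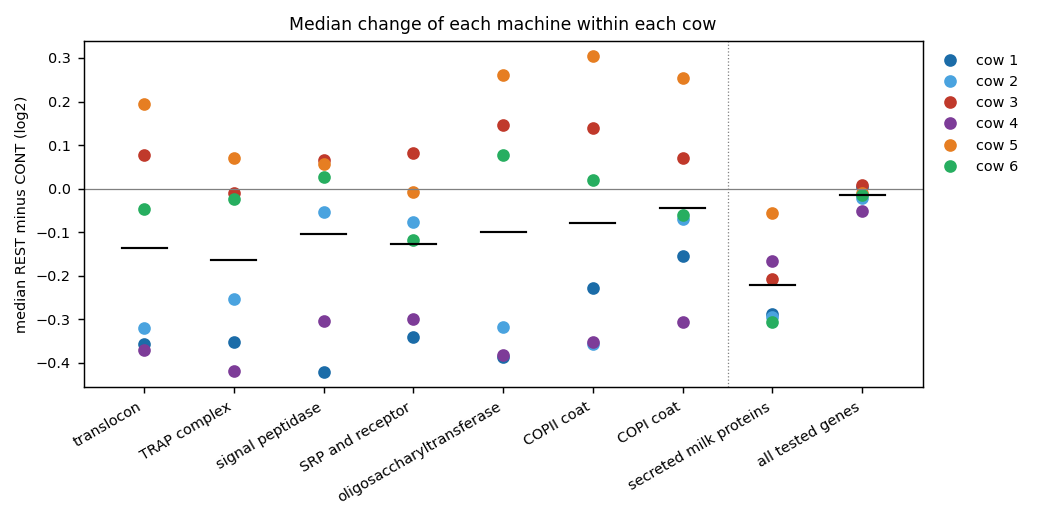
Median change (REST minus CONT, log2 units) of each of the 7 machines in each of the 6 cows (points) with the mean over the cows (black lines), and the same for secreted milk protein genes and all tested genes on the right. The machine medians sit below 0 in cows 1, 2 and 4, above 0 for 6 of 7 machines in cows 3 and 5 and on both sides of 0 in cow 6, while all tested genes stay between -0.05 and 0.01 and the milk proteins stay below 0 in every cow.

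Cows 3 and 4 shared a slide, and their medians of 0.11 and -0.34 were far apart, so the spread was present within slide 2. On slide 1, cows 1 and 2 were both low, and on slide 3, cow 5 was higher than cow 6. Relative to the median of all genes, cows 1, 2 and 4 lay below 0 and cows 3 and 5 above 0 with quantile normalization and with normexp background correction as well, and cow 6 lay at -0.0032 and 0.021. A constant shift of an array, such as a median or spike-in scaling, cancels in this difference and so could not alter it. Under spike-in scaling the median of all genes itself lay between -0.16 in cow 5 and 1.05 in cow 1, and the medians of the members moved with it, to between -0.33 in cow 4 and 0.72 in cow 1.

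Each period contributed to this spread. Set against the mean of each member over the 12 arrays, the median member of the CONT arrays stood at 0.25, 0.15 and 0.19 in cows 1, 2 and 4, and at -0.05, -0.11 and 0.07 in cows 3, 5 and 6. In REST the same cows stood at -0.10, -0.06 and -0.17, and at 0.04, 0.04 and 0.03. The arrays thus lay closer together in REST than in CONT, from -0.17 to 0.04 against -0.11 to 0.25. The cows with the higher CONT levels were those with a fall, a relation that a change computed from the same CONT arrays carries in part by its construction, and it was not tested.

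**Figure D4:**
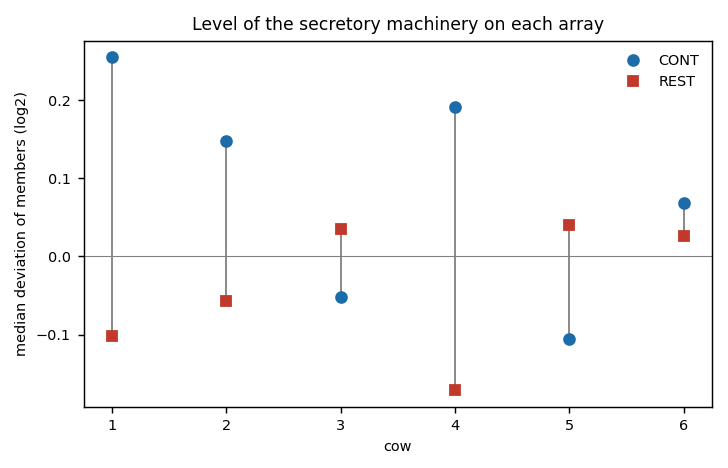
Level of the secretory machinery on each array, as the median over 41 members of the deviation (log2 units) from the mean of each member over all 12 arrays, for CONT and REST of each cow. CONT arrays spread from -0.11 to 0.25 and REST arrays from -0.17 to 0.04, with cows 1, 2 and 4 falling and cows 3 and 5 rising.

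The called members went with this pattern to different degrees. SSR4, SRP14 and COPE were lower in cows 3 and 5 as well, where most of the set was higher, and both SSR4 and SRP14 fell furthest in cow 5. SRP9 had its lowest changes in cows 1, 2 and 4 and a higher REST value in cow 5, but it was lower by 0.25 in cow 3, where most of the set was higher. COPG2 was higher in every cow and most so in cow 5.

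Cargo and cell type markers give the setting of these values. Each list holds few tested genes, so its count of calls cannot be set apart from the 16.2% of all genes called. The secreted milk proteins, the main load of the pathway, had medians below 0 in each of the 6 cows, from -0.31 in cow 6 to -0.06 in cow 5, cow 3 included at -0.21. Of their 5 tested genes, 2 were downregulated, CSN1S1 at -0.26 (adjusted p = 0.0911) and CSN3 at -0.28 (adjusted p = 0.0774), both lost without the pairing (0.185 and 0.226). CSN2 was not tested. The count rests on the brightest probe of each gene, and other probes of CSN1S2 (4 of 5) and LALBA (1 of 2) were called. Summed on the linear scale, their signal ran from 4229 to 5460 times the 75th percentile in CONT and from 3414 to 4479 in REST, lower in 6 of 6 cows. The casein and whey protein genes thus stayed lower in cows 3 and 5, where the median of the machinery was above 0.

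Markers of luminal epithelium, the cells that make milk, were mixed. Of 8 tested genes, 3 keratins were upregulated and none was downregulated, KRT8 at 0.72 (adjusted p = 0.00897), KRT7 at 0.53 (0.0598) and KRT18 at 0.52 (0.0681), each lost without the pairing at 0.133, 0.171 and 0.508. The probes of KRT8 disagreed, with the lowest at -0.14. Of the genes that were not called, EPCAM stood at 0.33, KRT19 at 0.12, CLDN3 at 0.03, ELF5 at -0.05 and CLDN4 at -0.17. The medians of the luminal list were 0.51, 0.55 and 0.35 in cows 1, 2 and 4 and -0.16, 0.11 and 0.09 in cows 3, 5 and 6. The summed luminal level ran from 238 to 332 in CONT and from 262 to 348 in REST, higher in 4 of 6 cows. The part of epithelial content in the values of the machinery was not tested.

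Of the other cell types, endothelial markers were higher in sum in 6 of 6 cows, from 15.9 to 25.4 in CONT and from 24.7 to 33.0 in REST, with 2 of 7 upregulated. Plasma cells also carry large amounts of this machinery. In limma, 0 of their 5 tested markers were called, with or without the pairing, and 0 had an unadjusted p under 0.05, while the sum ran from 73.8 to 91.2 in CONT and from 58.2 to 99.5 in REST. TNFRSF17, POU2AF1 and DERL3 of that list were not tested, having no matched probe or none detected on every array of a period. Of the fibroblast markers, 0 of 8 were called, with or without the pairing, and 2 had an unadjusted p under 0.05, with sums from 35.4 to 66.7 and from 28.3 to 77.8. Leukocyte markers had 2 of 8 upregulated, none of them without the pairing, with sums from 22.4 to 33.2 and from 27.5 to 38.3. Myoepithelial markers had 2 of 7 downregulated, none of them without the pairing, with sums from 101 to 199.5 and from 91.5 to 185. Among adipocyte markers, ADIPOQ, LEP, PLIN1, CIDEC and PCK1 were not tested, and FABP4 alone was measured, downregulated with the pairing but not without it, and lower in 6 of 6 cows. Skeletal muscle markers had 1 of 2 tested genes downregulated, not so without the pairing, and their sum ran from 2.05 to 3.73 in CONT and from 1.72 to 2.94 in REST, lower in 5 of 6 cows. Of the erythrocyte markers HBA alone was tested, at -0.33 and not called, with a signal from 13.6 to 19.9 in CONT and from 10.3 to 20.3 in REST, lower in 5 of 6 cows. The part of these cell types in the values of the machinery was likewise not tested.

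Around the machines, 105 further genes of the same route were listed and 90 of them were tested. Called among them were 5 downregulated and 1 upregulated, or 6.67%, again under the 16.2% of all genes, and the median change was -0.05. The glycosylation list had medians of -0.24, -0.16 and -0.36 in cows 1, 2 and 4, and of 0.0018 and 0.10 in cows 3 and 5. The exit site regulators, the cargo receptors and the SNAREs with RAB GTPases also lay below 0 in cows 1, 2 and 4 and above 0 in cows 3 and 5. The translocation and insertion list differed, at 0.0024 in cow 3 and -0.10 in cow 5. The genes that assist translocation and insertion into the membrane had 1 call among 17, EMC6, a subunit of the membrane insertase known as EMC. It was lower in 6 of 6 cows at -0.42 ± 0.08 (SE, n = 6; adjusted p = 0.0261 in limma, and 0.142 without the pairing).

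Among 20 other glycosylation genes of the reticulum, 2 were downregulated and 1 was upregulated, with a median of -0.13. TMEM258, a small subunit of the oligosaccharyltransferase, stood at -0.39 (adjusted p = 0.0654), lower in 5 of 6 cows. DPAGT1, the enzyme that begins the sugar chain on its lipid carrier, stood at -0.38 (adjusted p = 0.0484), lower in 6 of 6. The upregulated gene was ALG1, the mannosyltransferase that acts after it, and it is named after its value was seen. ALG1 stood at 0.37 (adjusted p = 0.0289), with the groups not overlapping and 6 of 6 cows higher, and 1 of its 3 tested probes was called, with changes from 0.16 to 0.37. Without the pairing ALG1 was still called (0.0715), and TMEM258 and DPAGT1 were not (0.152 and 0.239). The call of TMEM258 was also lost without cow 1, 2, 4 or 6 (adjusted p between 0.130 and 0.178), and that of DPAGT1 without cow 1 or 4 (0.122 and 0.133).

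Exit site and coat regulators had 1 call among 13, GBF1, the factor that activates ARF1 and so brings COPI to the membrane. GBF1 ran from -0.60 to -0.05 in CONT and from -1.05 to -0.38 in REST, and was lower in 6 of 6 cows. Its change was -0.48 ± 0.09 (SE, n = 6; adjusted p = 0.0234 in limma, and 0.0835 without the pairing), and both of its probes were called. Cargo receptors and tethers, which include the p24 proteins and the KDEL receptors, had no call among 22 genes in limma, with the pairing or without it, 4 genes at an unadjusted p under 0.05 and a median of 0.00072. Of LMAN1, a receptor for glycoproteins, named here after its values were seen, 1 of 3 tested probes was called, but not the brightest one, at -0.47. SNAREs and RAB GTPases had 1 call among 18, SEC22A, at -0.31 (adjusted p = 0.0621, and 0.106 without the pairing). Its call was lost without cow 1, 2, 4 or 6 as well, with an adjusted p between 0.108 and 0.162. Of the 6 called genes around the machines, ALG1 alone was also called under spike-in scaling.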

How the data were processed

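Total RNA (50 ng) of 12 MG biopsies was amplified, labelled with Cy3 and hybridized to bovine 4 × 44K arrays. Per the file headers, the authors extracted the spots with Agilent Feature Extraction, and the deposited processed intensity is background-subtracted on a linear scale, without scaling between arrays. The deposited series table holds the same intensity values. Here the processed signal was log2-transformed, marked spots (1 to 13 per array) were removed, repeat spots averaged, and the 75th percentile of non-control spots subtracted. Probes were named through RefSeq transcripts in a reference gene table of another assembly (27131 of 43653 probes, 62.2%), so no coordinates are given and only adjacency and gene length were read from that table.

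A probe was tested when well above background on every array of CONT or of REST (19403 probes). limma 3.58.1 (lmFit, eBayes) in R 4.3.3 was used with cow as a block, two-sided, with Benjamini-Hochberg adjustment over all tested probes and a threshold of 0.1. The labels give each cow both periods, and deviations of same-cow arrays correlated at 0.356 to 0.574. A gene took its tested probe with the highest mean signal. Python 3.11.15, pandas 2.3.3 and matplotlib 3.10.9 did the rest. Full values are given, in each machine, for at most 4 members with the smallest p, the one with the largest p and paralogous pairs, and for at most 2 called genes by size of change in each pathway list. Members, lists and pairs were chosen with earlier results of these data known. On simulated data over 19403 probes, REST against CONT recovered 49% of 100 probes changed by 0.5 log2 units and 94% of 100 changed by 1, with 16 false calls. Only those probes were changed there, with noise drawn independently for each probe. In the data 3104 probes were called and genes moved together within a cow, so these rates need not hold for the real fit. The number of arrays limits the precision. Alternatives tried were a median, quantile or spike-in scaling, normexp background on median spot signals, the series table, marked spots kept, no block, a random block, the slide as a block, other filters on dim probes, other variance moderation, other probe rules and each cow left out.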

Additional observations from a re-analysis of the deposited data

Results flagged for a closer look

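Each of the 82 groups (41 members in each period, 6 arrays a group) was searched for a lowest or highest array whose gap to the nearest other array took up more of the group's range than the Dixon limit for 95% confidence. This marked 5 values, and chance would mark about 4.1 of 82. SEC61A1 was 4.06 in CONT of cow 3, where the other CONT arrays lay between 4.70 and 4.88. SRP9 was -1.16 in CONT of cow 5, the others lying between -0.41 and -0.19, and it is the value behind the 1 rise of SRP9 among the cows. SAR1B was -0.33 in CONT of cow 5 against 0.20 to 0.51, and COPZ1 was 3.35 in CONT of the same cow against 3.81 to 4.08. DDOST was 2.11 in REST of cow 4 against 3.01 to 3.53. These 4 CONT values were all low ones, in cows 3 and 5, the cows whose CONT arrays had the lowest median level of the machinery. That level was computed from the same members, the marked values included. With a number of marked values near that of chance, nothing is read from it.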

How the results depend on the processing

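The count of 5 called members was 9 at an unadjusted p under 0.05, a setting chosen after seeing the data. For the other settings the share of all genes called follows in brackets. The count was 3 with quantile normalization (16%), 2 of them lower, and 1 with spike-in scaling (11.2%), COPG2, which was higher. It was 3 with the slide as a block (9.75%), 2 with no replicate block (4.4%) and 2 without variance moderation (10.1%). It was 0 with no filter on dim probes (1.15%), where 8 members had an unadjusted p under 0.05 and 386 of 43653 probes were called. It was 7 with cow as a random block (18.3%), 7 with trended and robust moderation (19.1%) and 6 with probes well above background on all 12 arrays (18.2%). It was 4 with a median shift (15%), 3 of them lower, and 4 with normexp (18.5%), 2 of them lower. Leaving out each cow gave 1 to 7, with shares from 5.69 to 16.4%. Calls over all probes were 3104, and 838 without the block, 1900 with the slide, 1860 without moderation and 1053 to 3261 without a cow. SSR4 and COPG2 were the members called both with and without the pairing. Spike-in scaling raised the median of all genes to 0.25 and the machine medians to 0.031 (translocon), 0.17 (translocon-associated complex), 0.17 (signal peptidase), 0.10 (signal recognition particle), 0.17 (oligosaccharyltransferase), 0.11 (COPII) and 0.19 (COPI). With normexp they were -0.096 (translocon), 0.013 (translocon-associated complex), 0.027 (signal peptidase), 0.012 (signal recognition particle), 0.023 (oligosaccharyltransferase), -0.048 (COPII) and 0.077 (COPI). Within slide 1 the translocon-associated complex stood at -0.32. Within slide 3 the oligosaccharyltransferase stood at 0.16, COPII at 0.12, COPI at 0.036, the translocon-associated complex at 0.023 and the signal peptidase at 0.0084. Leaving out each cow kept all 7 medians below 0, with the translocon between -0.34 and -0.11 and the signal recognition particle between -0.24 and -0.07. COPII lay between -0.18 and -0.07, the oligosaccharyltransferase between -0.16 and -0.03 and the translocon-associated complex between -0.17 and -0.03. The signal peptidase lay between -0.13 and -0.03, and COPI between -0.10 and -0.01. SAR1A minus SAR1B was 0.0013 without cow 4 and 0.087 over all probes, and ranged from -0.073 to 0.057 with 1 cow left out. The causes were not tested. Slide 3 was dimmer, and whether that affected dim probes such as those of SRP9 and COPG2 was not tested.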

Other observations

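The called members were set beside the genes that lie next to them in the current bovine reference, a choice made after their values were seen. Next to SSR4, IDH3G stood at 0.03 (adjusted p = 0.860 in limma), and next to COPE, DDX49 stood at 0.06 (adjusted p = 0.646). EPHX1, next to SRP9, was upregulated at 0.39 (adjusted p = 0.0618), higher in 6 of 6 cows, where SRP9 was lower in 5. MEST, which overlaps COPG2, was downregulated at -0.31 (adjusted p = 0.0617), lower in 5 of 6 cows, where COPG2 was higher in 6. Neither EPHX1 nor MEST was called without the pairing (0.185 and 0.235).

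The estimates of the members were also read against the length of the gene in the reference, from start to end, in 4 classes of all tested genes of equal size. From the shortest class to the longest, the members had medians of -0.27 (n = 7), -0.16 (n = 12), -0.09 (n = 16) and 0.03 (n = 6). All tested genes had -0.04, -0.02, 0.01 and 0.01. The 4 downregulated members lay in the 2 classes of shorter genes and COPG2 in the longest. Over all genes, 12.8% of the shortest class were downregulated, and 8.53%, 7.51% and 8.22% of the others in order of length. This division was made after the data were seen, and it was not tested.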
